A study of Mus musculus with 66 samples.

Results

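The 200 genes with the longest introns among 11513 genes measured in mouse fibroblasts were followed through 11 times after Myc was activated. The deposited tables give no gene lengths, so length was read from them: the intron value of a gene divided by its intron RPKM (reads scaled by feature length and library size) is proportional to the length of intron the authors counted over. The index of a gene was the median of that quotient over the 33 libraries of labelled RNA, and the members were the 200 highest of the 10281 genes whose labelled intron value averaged at least 50. The rule used no change over time. Dividing the index by 48.0, its median per kilobase of annotated intron, put the members at 347 kb or more, with a median of 472 kb. The last genes inside were Setbp1 and Snx29 at 348.6 kb each and Tiam1 at 347.0 kb, and the first outside were Vwa8 at 345.6 kb, Slc4a4 at 344.4 kb and Fto at 342.7 kb. Members were set beside 200 genes in the middle of the index (22.6 to 24.1 kb) and the 200 lowest (0.218 to 1.48 kb).

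The cells were 3T9-MycER, a mouse line derived from embryonic fibroblasts, with both c-myc alleles flanked by loxP sites and a retroviral MycER transgene, which is Myc fused to a hormone-binding domain that tamoxifen activates. 4-hydroxytamoxifen (OHT) was given at 400 nM, and cells were taken after 10, 20 and 30 min, then at 1, 1.5, 2, 4, 8, 12 and 16 h, beside untreated cells (0 min). A 4-thiouridine pulse (300 µM, 10 min) tagged newly made RNA, and every time has 3 libraries of such labelled RNA and 3 of total RNA, 66 in all. All groups carry the floxed alleles and the transgene, all come from 1 line, untreated cells were taken at 0 min alone, and every comparison shares those libraries. Intron values summed to 31279341 to 39258946 in a labelled library and 10649913 to 13008655 in a total library. Of 8 fibroblast markers 7 were in the tables, with Vim at 1260 to 2440 RPKM over the total libraries, no epithelial marker of 6 was in them, and the leukocyte gene Ptprc and the endothelial gene Pecam1 did not exceed 0.146 RPKM, although the macrophage gene Cd68 ranged over 2.05 to 3.24 RPKM.

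RNA polymerase II copies a gene from its start to its end at a limited speed, so a change at the promoter of a long gene reaches the far introns and the last exons after a delay. Introns are spliced out and degraded soon after they are made, and a short pulse of 4-thiouridine marks the RNA made during the pulse. Labelled intron reads therefore follow transcription along the gene body, while exon reads of total RNA also hold older RNA. Genes with very long introns are known for roles in cell adhesion, the cytoskeleton and neuronal wiring, and several of them lie at common fragile sites, regions prone to breakage when replication is slowed.

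The mm9 gene models (GENCODE M1) matched 199 members and gave nearly the same picture of length. Over 10200 eligible genes with a model, the index and the annotated intron length had a Spearman correlation of 0.971 across genes, given as a description, and 174 members lay within 20% of their annotated length. The median member gene spanned 462 kb with 16 introns and a longest intron of 155 kb, against 27.3 kb, 9 introns and 8.87 kb in the middle genes. The first intron was the longest in 68 members. Other protein-coding genes lay wholly inside 37 members, up to 5 in Arfip1, whose model spans Fbxw7 and Tigd4 among them. For 8 members the index exceeded 5 times the annotation or had no model to be set against: Snora19, Nkain2, Gm13251, Smchd1, Ppp2r5c, Zfp553, Tnrc18 and Zfp697. Snora19, a small nucleolar RNA gene, headed the index at 35800 kb.

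The splice sites of 8 longest introns are shown because the results below turn on these genes. Each donor line has 6 exon bases, then the first 6 intron bases in capitals. Each acceptor line ends with 6 exon bases, after the last 2 intron bases in capitals. Letters are from mm9, read on the strand of the gene.
Dock4 intron 1 of 52, donor, chr12:41172982-41347807, strand +: gcgtggGTGAGTgctcgcgggcgaac
Dock4 intron 1, acceptor: acattctcttatcatttcttacAGttattg
Camta1 intron 3 of 22, donor, chr4:150960592-151204526, strand -: aatgagGTAGATacatttcaattttt
Camta1 intron 3, acceptor: tctttttatttttttctgtttcAGgaaatt
Erc2 intron 19 of 19, donor, chr14:29130501-29288788, strand +: tgagggGTGAGAaaccatcttttcta
Erc2 intron 19, acceptor: aaatcatgtgctttctcattgcAGctgtca
Macrod2 intron 5 of 16, donor, chr2:140849878-141340939, strand +: caaagtGTGAGTacggcatgcctgaa
Macrod2 intron 5, acceptor: ccctattcttctttgcttttgcAGatgtca
Immp2l intron 4 of 6, donor, chr12:41837531-42729750, strand +: attggtGTAAGTaactcagtaactta
Immp2l intron 4, acceptor: ataatattttcttttttatcctAGgtctcc
Etl4 intron 3 of 7, donor, chr2:20211669-20451585, strand +: tcttagGTGAGTtctgactttttact
Etl4 intron 3, acceptor: gcactcttgtccttcatcttgcAGaacaag
Kalrn intron 1 of 60, donor, chr16:34392196-34513999, strand -: atcgagGTATCCtgagtgcgtatctg
Kalrn intron 1, acceptor: tctttctattttgttgtcccacAGgatctt
Mast4 intron 4 of 28, donor, chr13:103644000-103815601, strand -: aagtctGTAAGTacaaggactctctt
Mast4 intron 4, acceptor: ctggtttttctttccttctgacAGttgccg
All 8 introns begin with GT and end with AG, and they run from 121.8 kb in Kalrn to 892.2 kb in Immp2l. Among the longest introns of the members, 98.5% had GT and AG at their ends, against 98.8% of all eligible genes. The donor letters GTAAGT opened 20.1% of the members' longest introns, against 13.2% in the middle genes, 6.67% in the shortest and 13.1% of all eligible genes, while GTGAGT opened 18.6%, 20.3%, 22.1% and 19.1% of the same sets. The median G and C content of that intron was 41.4% in the members, 44.9% in the middle genes and 49.5% in the shortest. These shares describe the gene sets and were not tested.

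Before OHT the members had lower intron levels per length and higher intron values than the other 2 groups, a contrast tied in part to how the groups were chosen. The median member had a labelled intron level of 0.274 RPKM at 0 min, against 1.19 RPKM in the middle genes and 2.46 RPKM in the shortest. Its scaled intron value was 6840, against 1340 and 126. Scaled values are the deposited whole numbers brought to a common library scale. The index is the intron value divided by the RPKM, so at equal RPKM a gene of higher index has a higher value. Genes entered by a minimum mean intron value, so a gene of low index needed a higher RPKM to enter than a member did. The part of the index and of this entry rule in these contrasts was not tested, and they are not read as a trait of the members. The median standard error of a change in labelled introns was 0.099 (log2) for the members, 0.085 for the middle genes and 0.172 for the shortest. For the same groups it was 0.126, 0.097 and 0.17 in total introns. In labelled exons it was 0.12, 0.097 and 0.102, and in total exons 0.12, 0.074 and 0.085. Among these groups the members were thus measured least precisely in exons. In labelled RNA the intron level was 26.5% of the exon level per length in the median member and 33.7% over all eligible genes, and in total RNA 4.79% and 4.42%.

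In labelled introns, members stayed near their 0 min level for 20 min while a large share of other genes had already changed. A gene was called where the adjusted p of limma, fitted on the whole table and adjusted over all its genes, was under 0.05. At 10 min no member was called, against 0.521% of all 11506 genes tested, and 1 member had an unadjusted p under 0.05. At 20 min 4 members fell and none rose, 2.0% of 200, against 30.1% called over all genes and 40% of the middle genes, and 11 members had an unadjusted p under 0.05. Scaled by library sums, 10 members fell and none rose at 20 min, and with no further scaling 3 fell and 2 rose. At 30 min 18 members rose and 5 fell, 11.5%, against 42.4% of all genes, of which 21.8% rose and 20.6% fell. From 1 h the gap was smaller, with 24 members up and 56 down, 40%, against 49.2% of all genes. At 1.5 h 48.0% of the members were called against 44.2%, at 2 h 50.0% against 44.2%, at 8 h 58.0% against 52.8% and at 12 h 71.0% against 54.8%. At 16 h the members had the larger share, with 31 members up and 99 down, 65.0%, against 48.4% over all genes, of which 25.7% rose and 22.7% fell.

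Members fell more often than they rose from 1 h on. At 4 h 28 members rose and 81 fell, where 2861 of all genes rose and 2864 fell, and the members called were 54.5% against 49.8%. The median member changed by -0.13 (log2) at 1 h, -0.17 at 4 h, -0.28 at 12 h and -0.25 at 16 h, with the median of all genes between -0.02 and 0.03. At 30 min the balance of rises and falls turned with the scaling: by library sums 10 members rose and 20 fell, with the median member at -0.04 and the median of all genes at -0.10, against a median member of 0.05 in the main scaling. With no further scaling 28 rose and 2 fell. At 16 h scaling by library sums gave 45 rises and 82 falls and put the median of all genes at 0.13. The summed labelled intron values of the members made up 6.72%, 6.89% and 6.91% of the library at 16 h, against 7.78%, 7.78% and 8.09% at 0 min.

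**Figure D1:**
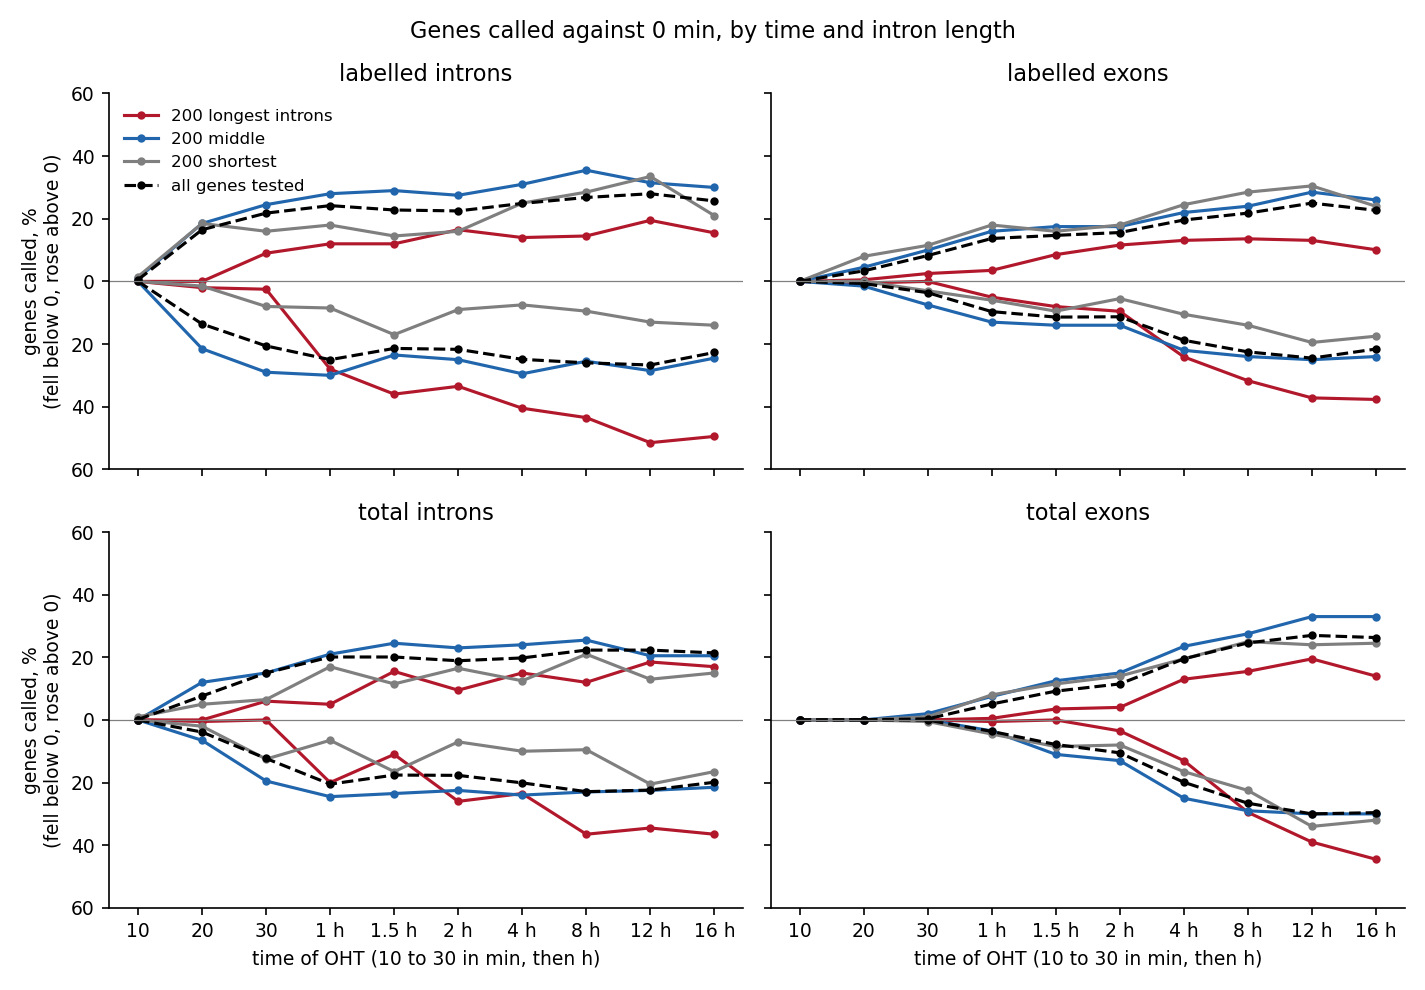
Share of genes called against 0 min (limma adjusted p under 0.05) at each time, with rises above 0 and falls below 0, for the 200 members, the 200 middle genes, the 200 shortest and all genes tested, in the 4 kinds of values. In labelled introns the members stay near 0 until 20 min, when 40% of the middle genes are called, and reach 49.5% fallen at 16 h.

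The members with the largest rises at 30 min whose libraries did not overlap with 0 min were Camta1, Dock4, Hivep3 and Erc2. Elmo1, an adaptor that works with Dock proteins, changed by 0.64 at 30 min with overlapping libraries. Dock4, which activates the small GTPases Rac and Rap (chromosome 12, 41172640 to 41573073, 386 kb of intron by the index), had 6021, 5774 and 5850 scaled labelled intron values at 30 min, against 3811, 4278 and 4227 at 0 min. Every library at 30 min lay above every library at 0 min, and the log2 change was 0.52 (SE 0.07, limma adjusted p = 2.32e-07). At 20 min its libraries had 4228, 4770 and 4795, and the change was not called (0.16, adjusted p = 0.0708). At 1 h Dock4 reached 7791, 8100 and 8246, a change of 0.97, the largest rise among members at that time.

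Camta1, a calmodulin-binding transcription activator with 787 kb of intron, had 5980, 6370 and 6713 at 30 min, against 4220, 4551 and 4504 at 0 min. Its change was 0.52 (SE 0.07, limma adjusted p = 9.43e-07), and the libraries of the 2 times did not overlap. Erc2, a scaffold of the presynaptic active zone (846 kb), had 2485, 2117 and 2194 at 30 min and 3715, 3967 and 3699 at 4 h, against 2035, 1420 and 1615 at 0 min. It had risen by 0.43 at 30 min (adjusted p = 0.00174) and by 1.18 at 4 h, the largest rise of a member then. Hivep3, a zinc finger protein that binds kappa B motifs (391 kb), had 587, 744 and 747 at 30 min, against 445, 585 and 477 at 0 min, and rose by 0.46 (limma adjusted p = 0.00381).

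The early falls were small. The largest at 30 min was that of the centrosomal protein gene Cep112, with 831, 972 and 886 against 998, 1335 and 1231 at 0 min (-0.40, limma adjusted p = 0.0299). Lhfpl3 fell by 0.25, the potassium channel partner Kcnip4 by 0.23 and the channel subunit Kcnab1 by 0.20. Each of these 4 calls was lost when single libraries were left out: Cep112 was at -0.31 without replicate 2 of 0 min (adjusted p = 0.143), Lhfpl3 at -0.17 without replicate 3 of 30 min (0.184), Kcnip4 at -0.19 without replicate 2 of 30 min (0.098) and Kcnab1 at -0.17 without replicate 3 of 0 min (0.0928). Cep112, Kcnip4 and Kcnab1 were also among the 4 members called lower at 20 min, with Camkmt.

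At 1 h more members fell than rose. Sema3a, a secreted guidance cue (469 kb), had 14410, 17130 and 13410 at 1 h, against 21330, 25060 and 24730 at 0 min. The change was -0.67 (SE 0.09, limma adjusted p = 2.49e-07), it stood at -0.37 at 4 h and at -0.88 at 16 h. Mir99ahg, a host RNA of microRNAs, also fell by 0.67, with 3048, 3318 and 2906 against 4469, 5077 and 5257. Lrrc4c, a netrin-G ligand of synapses (1310 kb), fell by 0.91 with 840, 1044 and 1034 against 1585, 1966 and 1938. The largest fall was that of Adamtsl1, a gene of low signal, with 53.0, 55.8 and 19.4 against 114, 72.0 and 125 (-1.36, limma adjusted p = 0.000405).

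At 4 h Erc2 was followed among the rises by Slit3 (1.17), Dock4 (1.05) and Fras1 (0.96), which had 687, 883 and 765 labelled intron values, against 328, 416 and 455 at 0 min. The carboxypeptidase gene Cpa6 had 303, 338 and 243 at 4 h, against 609, 555 and 741 at 0 min, and fell by 1.11 (limma adjusted p = 9.79e-07). Akap6 fell by 0.95 and Adamtsl1 by 0.91, and Cep112 had 596, 675 and 636 against 998, 1335 and 1231 (-0.89). The call of Adamtsl1 was lost without replicate 3 of 0 min (-0.75, adjusted p = 0.0741). The rise of Slit3 at 1 h, 0.74, was lost without replicate 1 of 0 min (0.59, adjusted p = 0.0511).

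By 16 h the members had separated into a few strong risers and many that fell. Macrod2, a hydrolase of ADP-ribose marks that lies at a common fragile site (1990 kb), had 3830, 4181 and 4565 labelled intron values, against 1343, 1510 and 1434 at 0 min, and rose by 1.55 (SE 0.11, limma adjusted p = 9.38e-13). Immp2l, a mitochondrial inner membrane peptidase subunit (1300 kb), had 11870, 12010 and 11480 against 4803, 4867 and 4670 and rose by 1.30. Samd12 rose by 1.46 and Slit3, a ligand of Robo receptors, by 1.10. Slit3 had 86.9, 74.3 and 91.6 against 31.3, 43.4 and 42.5, low values at which its call was lost on RPKM plus 0.1 (adjusted p = 0.213 at 16 h).

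The deepest falls at 16 h were those of Unc13c (-1.59), a synaptic vesicle priming factor, Npas3 (-1.55), a basic helix-loop-helix transcription factor, Etl4 (-1.51) and Edil3 (-1.46), an integrin-binding matrix protein. Etl4 (883 kb) had 4234, 4280 and 4528, against 11250, 12490 and 13560 at 0 min. Unc13c had 119, 102 and 146 against 393, 355 and 350, and Npas3 1740, 1844 and 1538 against 4531, 5086 and 5350. In each of these genes the libraries of the 2 times lay far apart.

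The longest genes were mixed. Dmd, which encodes dystrophin (2370 kb), had 10720, 9974 and 8893 labelled intron values at 16 h, against 16760, 19240 and 18540 at 0 min. It was at -0.04 at 30 min (not called), fell by 0.27 at 1 h (limma adjusted p = 0.0172), by 0.61 at 4 h and by 0.88 at 16 h. The receptor phosphatase gene Ptprd (2260 kb) was at -0.02 at 1 h and -0.17 at 4 h, neither called, and fell by 1.01 at 16 h (adjusted p = 2.59e-10). Lrp1b (2030 kb), a lipoprotein receptor, had changes of 0.01 at 1 h and 0.19 at 16 h and was called at neither. Csmd1 was at -0.37 at 1 h, not called, and fell by 0.46 at 16 h (adjusted p = 0.0486). Dlg2, a synaptic scaffold, had 94.0, 104 and 99.2 at 1 h and 207, 233 and 260 at 16 h, against 126, 153 and 142 at 0 min, a fall of 0.49 and a later rise of 0.73. Arfip1, which binds Arf GTPases, fell by 0.16 at 30 min and by 0.49 at 16 h, in introns whose model holds other genes.

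Labelled exons of the members were called later than their introns. At 30 min 5 of 199 members rose and none fell, 2.51%, against 11.8% of all 11488 genes, and 17 members had an unadjusted p under 0.05. At 20 min 1 rose and 1 fell, 1.01% against 4.03%. At 1 h 7 rose and 10 fell, 8.54% against 23.4% (5 up and 16 down by library sums), at 4 h 26 rose and 48 fell, 37.2% against 38.3% (16 up and 55 down with no further scaling), and at 16 h 20 rose and 75 fell, 47.7% against 44.3%. In between, 16.6% were called at 1.5 h against 26.1%, 21.1% at 2 h against 26.9%, 45.2% at 8 h against 44.3% and 50.3% at 12 h against 49.5%. A lasting call was one that kept its direction at the next time, with a call at 16 h counted by itself. Such a call was found for 159 members in labelled introns and 112 in labelled exons. In these members the first lasting call came at a median of 90 min in labelled introns and 240 min in labelled exons. Over all genes with such a call the median was 30 min and 120 min. In the middle genes it was 30 min and 120 min, and in the shortest 75 min and 240 min. The shortest genes had the largest standard errors in introns, and the members had the largest in labelled exons. Calls depend on that precision, and its part in these times was not tested.

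Dock4 shows the order within a gene. Its labelled exons had 315, 319 and 366 at 30 min and 416, 404 and 357 at 1 h, against 279, 417 and 332 at 0 min, so the libraries overlapped when the introns had already separated. At 4 h they had 732, 604 and 647, a rise of 0.96 (SE 0.12, limma adjusted p = 5.79e-08). Etl4 exons were at 0.00 at 1 h (adjusted p = 0.991), when its introns had fallen by 0.40, and fell by 0.70 at 4 h and 1.47 at 16 h. Mast4, a microtubule-associated kinase gene, had 1163, 1106 and 1252 in exons at 16 h, against 3500, 3460 and 2862 at 0 min, the largest exon fall (-1.48) among called members averaging at least 50 in the higher group. Kalrn had 706, 778 and 583 against 1691, 1812 and 1870 (-1.39).

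Few members had changed in exons at 1 h. Camta1 had 373, 379 and 339 labelled exon values, against 242, 268 and 257 at 0 min, and rose by 0.51 (limma adjusted p = 5.27e-05). Zfp553 rose by 0.60 and Eda by 0.37, while Camkmt, a methyltransferase of calmodulin, fell by 0.70, Auts2 by 0.45, Tnrc18 by 0.36 and the centriole gene Cep128 by 0.35. Single libraries decided some of these calls: Eda was at 0.32 without replicate 3 of 0 min (adjusted p = 0.171), Camkmt at -0.43 without replicate 3 of 0 min (0.21), Auts2 at -0.35 without replicate 1 of 1 h (0.134) and Cep128 at -0.28 without replicate 1 of 1 h (0.0652). At 4 h Erc2 exons had 202, 163 and 193, against 99.6, 56.4 and 109 at 0 min, a rise of 1.12, and Tmem117 rose by 0.73. Psd3, an exchange factor for Arf6, had 416, 410 and 412 against 645, 812 and 661 (-0.77, limma adjusted p = 6.97e-06). Cep112 fell by 1.06, and the fall of Inpp4b (-0.67) was lost without replicate 2 of 4 h (-0.39, adjusted p = 0.0731).

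In Macrod2 the exons were called before the introns. Its exons had 88.0, 90.05 and 88.0 at 30 min, against 61.9, 59.4 and 54.5 at 0 min, a rise of 0.59 (limma adjusted p = 0.0205), while its introns were at 0.14 and not called. Flrt3, another protein-coding gene, lies wholly inside Macrod2, and Lrrn3 inside Immp2l. Whether the authors counted by strand is not given in the sources used here, and the part of these nested genes in the exon values was not tested. Immp2l exons had 47.5, 44.0 and 33.8 at 1 h, against 35.8, 21.1 and 25.0 at 0 min, which overlapped and was not called, and 76.3, 104 and 78.6 at 16 h, a rise of 1.65. Its intron minus exon difference was called at no time (-0.69 at 1 h, limma adjusted p = 0.106).

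**Figure D2:**
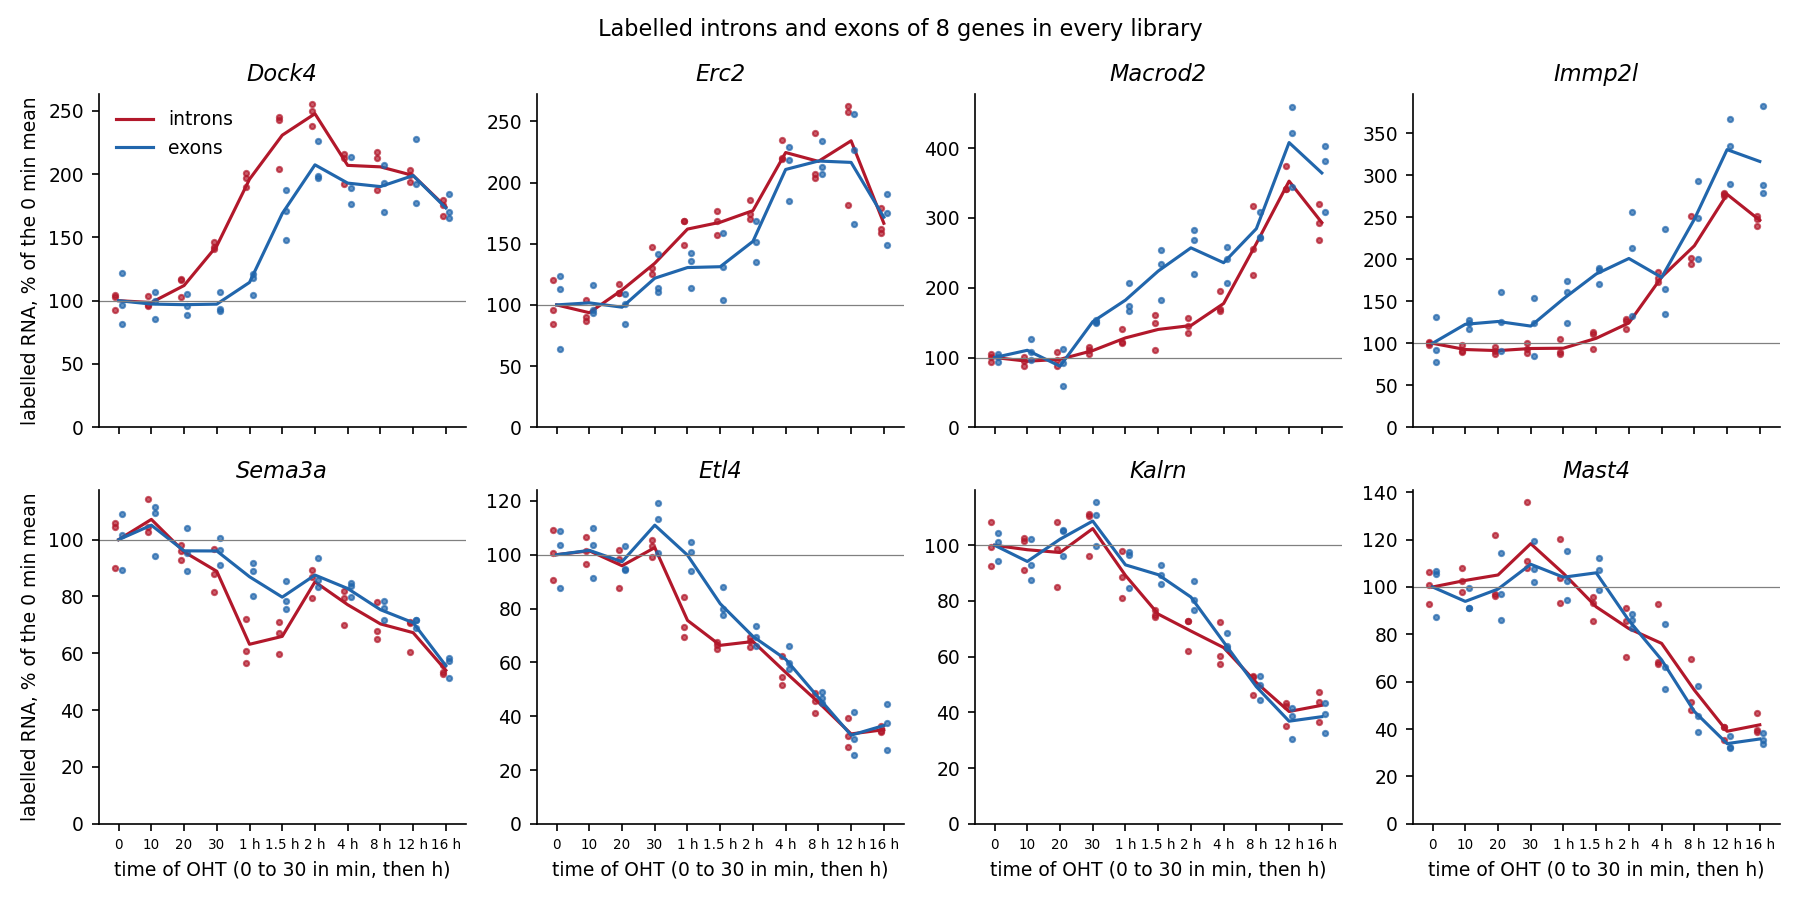
Labelled introns and exons of 8 members over the 11 times, as percent of the 0 min mean of the same gene, with a point for each library and lines through the means. Intron values move before exon values in Dock4 and Etl4, and exon values move first in Macrod2. The exon values of Immp2l are low, 21.1 to 35.8 at 0 min, and were not called at 1 h. Sema3a introns are low at 1 h, before falling further by 16 h.

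The difference between the intron change and the exon change was tested within the labelled libraries. At 30 min 3 of 199 members had a higher intron change and 2 a lower one, 2.51%, against 14.7% of all 11481 genes. By library sums 3 were higher and 5 lower, and with no further scaling 7 and 1. Dock4 led at 0.54 (SE 0.14, limma adjusted p = 0.00835), followed by Camta1 at 0.34 and Oxr1, a gene of oxidation resistance, at 0.23, while Macrod2 was at -0.45 and the zinc finger gene Zfp553 at -0.64. At 1 h 6 were higher and 9 lower, 7.54% against 10.5%. Dock4 was then at 0.76, Dip2c at 0.42 and Btbd9, whose product holds a BTB domain, at 0.41, with Zfp553 at -0.67, Mir99ahg at -0.56 and Fam110b at -0.53. At 1.5 h the members reached their highest share, 5 up and 17 down, 11.1% against 5.56%, with the median member at -0.11 against -0.01 over all genes. The balance of calls turned with no further scaling, where 11 were up and 8 down. The medians were then 0.05 for the members and 0.15 for all genes, so the median member stayed below that of all genes. The share was 5.53% at 2 h against 2.57%, 3.02% at 4 h against 1.38% and 3.02% at 16 h against 0.749%.

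These differences were less firm than the changes in introns. Fitted on the libraries of 0 min and the tested time alone, Dock4 had an adjusted p of 0.0668 at 30 min and 0.0518 at 1 h. Without replicate 2 of 0 min Dock4 was at 0.43 at 30 min (adjusted p = 0.0592), and without replicate 3 of 30 min Camta1 was at 0.33 (0.0606). Macrod2 at 30 min was at -0.39 without replicate 3 of 0 min (adjusted p = 0.158). The 1 h values of Dip2c, Btbd9 and Fam110b were 0.39 (adjusted p = 0.0843), 0.42 (0.0737) and -0.45 (0.179) without replicate 3 of 0 min. Zfp553 has an annotated intron length of 1.7 kb against 397 kb by the index.

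Total introns had a median first lasting call at 240 min in the members, as labelled exons had, and total exons were later. Total introns of the members were 6.0% called at 30 min, 25.0% at 1 h and 53.5% at 16 h, against 27.3%, 40.6% and 41.2% of all 11474 genes. At 20 min 1 member fell (0.5% against 11.5%), and the shares were 26.5% at 1.5 h against 37.6%, 35.5% at 2 h against 36.6%, 38.5% at 4 h against 39.9%, 48.5% at 8 h against 45.2% and 53.0% at 12 h against 44.7%. At 30 min all 12 called members rose, but by library sums 7 rose and 4 fell. In total exons none of 200 members was called at 30 min (0.366% of 11486 genes), with 16 at an unadjusted p under 0.05. At 1 h 1 rose and 1 fell, 1.0% against 8.74%, at 4 h 26 rose and 26 fell, 26.0% against 39.4% (21 up and 36 down with no further scaling), and at 16 h 28 rose and 89 fell, 58.5% against 55.9%. At 1.5 h 7 rose and none fell, 3.5% against 17.0%, at 2 h 7.5% were called against 22%, at 8 h 45% against 51.2% and at 12 h 58.5% against 57.0%. The first lasting call came at a median of 480 min in total exons of the members and 240 min over all genes. The median standard error there was 0.12 in the members and 0.087 over all genes. At 16 h Macrod2 had 471, 545 and 555 in total exons, against 147, 188 and 185 at 0 min (1.59), Erc2 rose by 1.08 and Dock4 by 1.02. Etl4 had 562, 570 and 504 against 1496, 1645 and 1546 (-1.52), Mast4 fell by 1.47 and Kalrn by 1.44. Fewer transcripts per cell and a different mix of cells cannot be told apart in such bulk values.

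To compare timing among genes that ended at similar changes, genes called in total exons at 8 h with a log2 change of at least 0.5 were followed in labelled RNA. Among members 15 rose and 28 fell, against 25 and 18 in the middle genes and 990 and 1004 over all eligible genes. The time to 50% of the 8 h change was read from the group's median by linear interpolation. A single replicate joins the libraries of the same number, each set against the mean of the 3 libraries at 0 min. Its values thus leave out the spread at 0 min, and the numbers give no pairing. In labelled introns of genes that rose it was 63.0 min in the members, with 56.0, 61.1 and 56.0 min from single replicates. In the middle genes it was 15.3 min, with 15.8, 15.8 and 16.1 min. It was 15.1 min in the shortest and 18.1 min over all eligible genes. At 20 min the members that rose stood at -0.05, 0.09 and 0.07 (median log2 change of each replicate), against 0.49, 0.48 and 0.50 in the middle genes, and the replicates of the 2 groups did not overlap. At 8 h the medians were 0.78 and 0.61. Genes are not replicates, so no p is given.

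Exons of the same genes took longer in each group. Members that rose reached 50% in labelled exons at 106 min (73.2, 79.3 and 114 min from single replicates), against 42.1 min in the middle genes (37.5, 28.1 and 56.1 min). Total exons, whose 8 h values chose the genes, reached it at 193 min in the members and 86.5 min in the middle genes. Among genes that fell, the replicates of the 2 groups did not overlap in introns and did in exons. Labelled introns took 58.3 min in the members (53.9, 74.6 and 57.7 min) against 29.3 min in the middle genes (25.8, 44.0 and 23.1 min) and labelled exons 121 min (118, 156 and 141 min) against 109 min (47.0, 75.5 and 122 min). The shortest genes that fell took 75.4 min in introns, but their replicates ranged over 58.4 to 215 min.

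**Figure D3:**
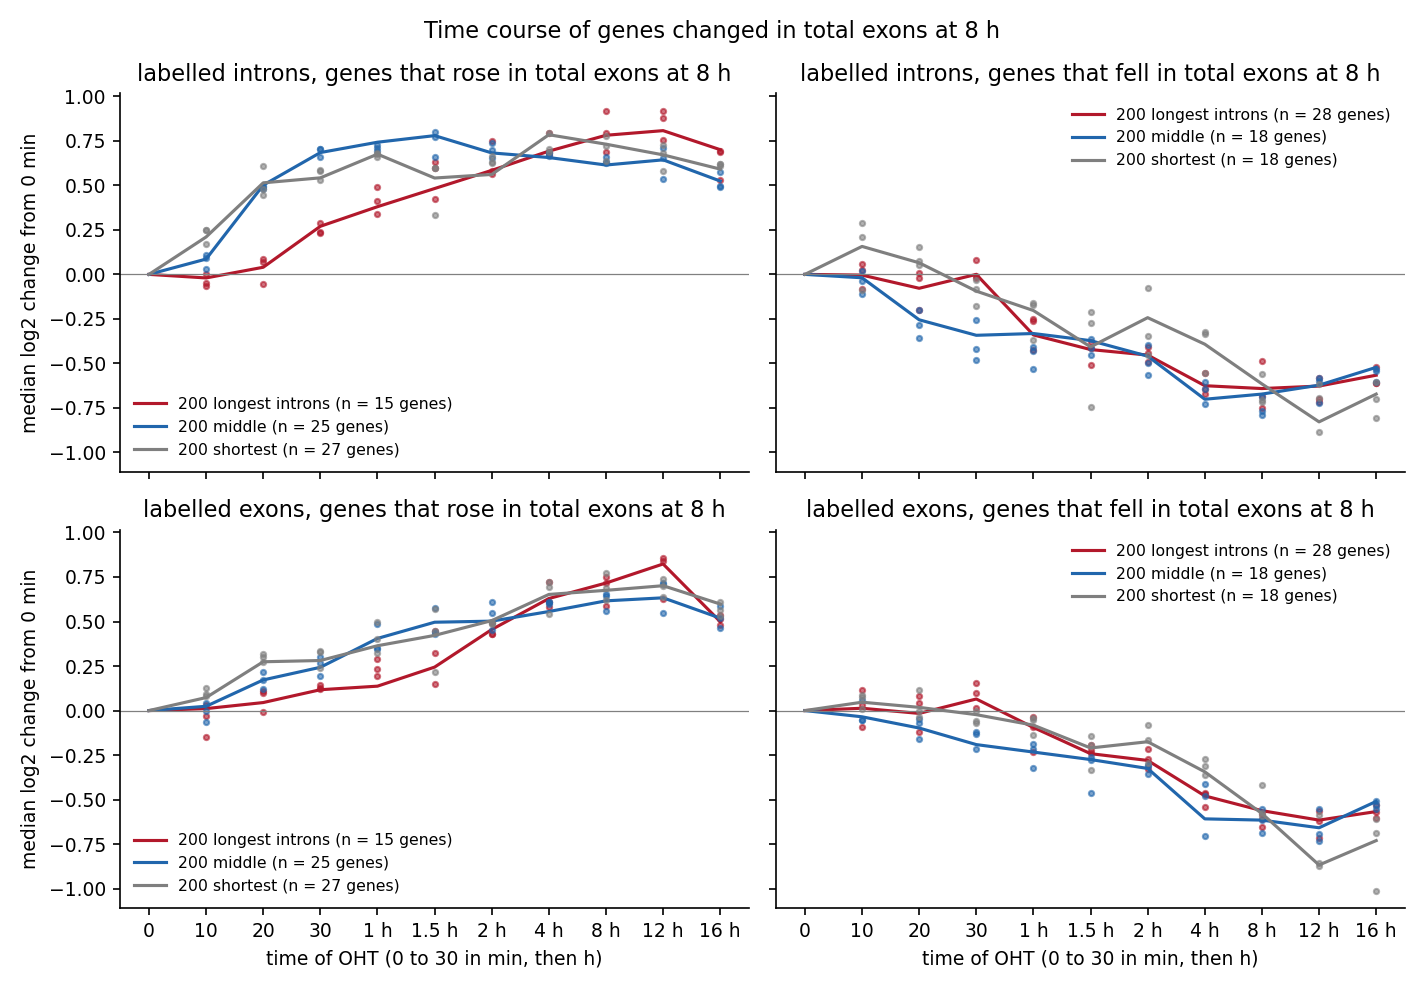
Median log2 change from 0 min in labelled introns (top) and labelled exons (bottom) of genes that rose (left) or fell (right) in total exons at 8 h, for the members, the middle and the shortest genes, with a point for each replicate and lines for the mean of 3 libraries. The members that rose stand at 0.04 in introns at 20 min, against 0.50 in the middle genes, and at 0.78 against 0.61 at 8 h.

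In labelled introns the time to 50% lengthened over the 3 longest of 10 groups, a description of group medians that was not tested. With all eligible genes cut into 10 equal groups by the index, genes that rose reached 50% in labelled introns at 15.8 to 17.6 min in the 7 groups of shorter introns. They took 20.4, 23.7 and 31.6 min in the groups with median intron lengths of 55.4, 95.0 and 187 kb. In labelled exons the longest group took 72.2 min and the others 35.3 to 54.4 min. Genes that fell took 44.0, 50.2 and 55.7 min in labelled introns in the 3 longest groups and 24.3 to 33.3 min in the other 7.

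**Figure D4:**
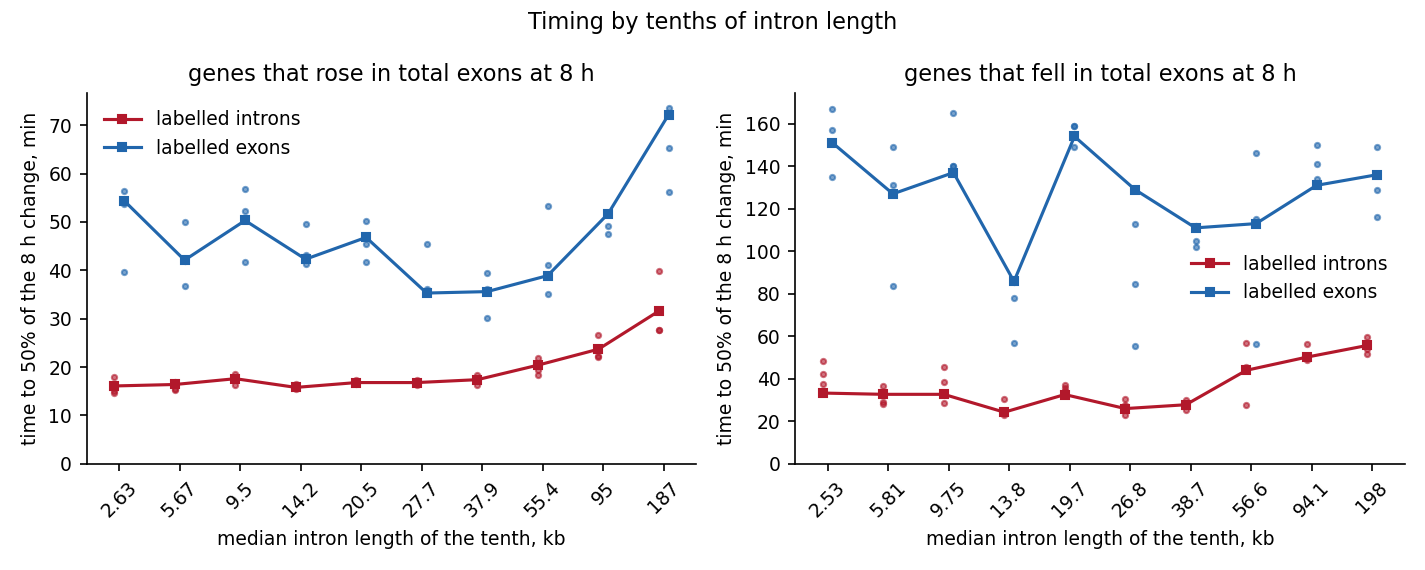
Time to 50% of the 8 h change, in minutes, in 10 equal groups of the intron length index (median length in kb on the horizontal axis), for genes that rose (left) and fell (right) in total exons at 8 h, in labelled introns and labelled exons, with a point for each replicate. Times in introns of genes that rose stay at 15.8 to 17.6 min in the 7 groups of shorter introns and reach 31.6 min in the longest.

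A gene was given a time only where its own labelled change at 8 h was at least 0.5, in the direction of total exons. Gene by gene, the time in labelled introns had a Spearman correlation of 0.344 with the index over 795 genes that rose, and 0.173 over 783 that fell. In labelled exons the correlations were 0.085 over 797 genes and 0.044 over 763. Among the 12 members that rose and whose introns had a time it was 0.825, and among the 21 that fell 0.117. In the members' labelled exons it was -0.063 over the 12 that rose and 0.094 over the 18 that fell. These are descriptions across genes that share libraries. The members that rose but had no time were Elmo1 (507 kb), Ctnnd2 (849 kb) and Agap1 (430 kb). Their labelled introns had changed by 0.27, 0.39 and 0.45 at 8 h. Elmo1 already stood at 0.36 at 20 min, so leaving it out bears on the value of 0.825.

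Among the 12 members that rose and had a time, the order followed length only in part. Erc2 at 846 kb came before Adk at 392 kb and Tmem117 at 462 kb. Dock4 (386 kb) reached 50% at 30 min in introns, Btbd9 (352 kb) at 36.2 min, Dip2c (384 kb) at 36.7 min, Erc2 (846 kb) at 44.3 min and Adk, adenosine kinase (392 kb), at 46.7 min. The ectodysplasin gene Eda (415 kb) took 63.7 min and Fras1, an extracellular matrix protein of basement membranes (394 kb), 70.2 min. Pard3b, a cell polarity scaffold (989 kb), took 101 min, the calcium release channel Ryr3 (568 kb) 104 min and Tmem117 (462 kb) 110 min. Immp2l (1300 kb) and Macrod2 (1990 kb) were last at 175 and 183 min. Exons were later than introns in 9 of these 12 genes, with 74.0 min in Dock4 and 192 min in Fras1, and earlier in Eda (27.5 min), Immp2l (63.7 min) and Macrod2 (48.0 min).

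Members that fell ranged from Sema3a at 35.1 min and Psd3 at 41.3 min to the adhesion protein gene Lpp at 156 min and Mast4 at 248 min in introns. Auts2 (1090 kb), a chromatin regulator of neurons, took 53.6 min, Etl4 87.5 min, the phosphodiesterase Pde4d (1290 kb) 97.9 min, Kalrn 110 min and Akap6, an anchor of protein kinase A, 139 min. Exons were later in 14 of 16 members that fell and had both times. Mast4 was nearly even, with 240 min in exons. Its introns had 31060, 22860 and 22670 at 4 h, against 35600, 33770 and 31170 at 0 min.

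**Figure D5:**
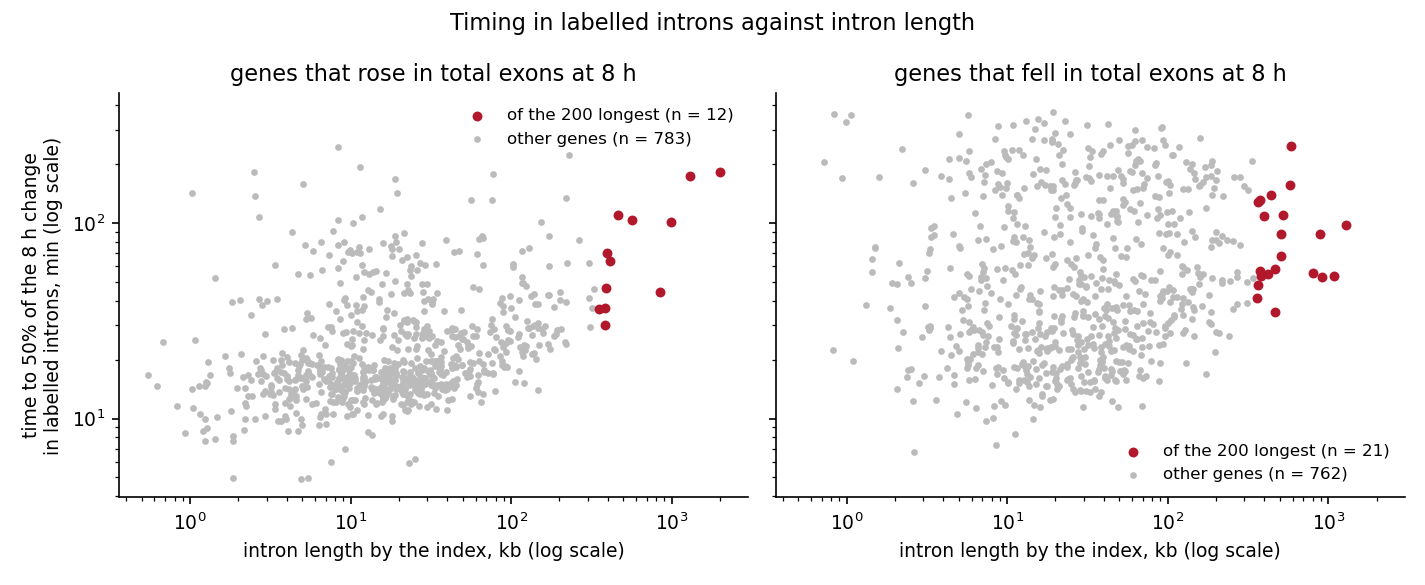
Time to 50% of the 8 h change in labelled introns (minutes, log scale) against intron length by the index (kb, log scale), a point per gene, for genes that rose (left) or fell (right) in total exons at 8 h. The 12 members that rose and had a time lie between 30 and 183 min, where the median of all 795 genes is 18.2 min.

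By function, 118 members fell into at least 1 of 6 lists. Of 20 transcription factors and chromatin regulators, 2 rose and none fell in labelled introns at 30 min, and 1 rose and 11 fell at 4 h, with a median change of -0.30. Zbtb20, a zinc finger repressor, had 20400, 21050 and 21470 at 4 h, against 32110, 38750 and 36850 at 0 min (-0.77, limma adjusted p = 1.69e-08), Npas3 fell by 0.76 and the forkhead factor Foxn3 by 0.63. Of 28 regulators of small GTPases and the cytoskeleton, 7 rose and none fell at 30 min, 4 rose and 12 fell at 4 h, and 6 rose and 17 fell at 16 h. Dock4 rose by 1.05 at 4 h, while Lpp had 45810, 43880 and 42320, against 69720, 76400 and 69700 (-0.71), and Utrn, the dystrophin relative utrophin, fell by 0.48.

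Of 29 adhesion, matrix, ligand and receptor genes, 5 rose and 10 fell at 4 h, and 3 rose and 17 fell at 16 h with a median of -0.54. Thsd7a, an endothelial migration protein, fell by 0.67 at 4 h, the netrin receptor Unc5c fell by 0.53, and Eda rose by 0.65 with 2965, 2527 and 2556 against 1717, 1651 and 1745. Of 17 kinases, phosphatases and second messenger genes 2 rose and 9 fell at 4 h, among them Inpp4b, a lipid phosphatase (-0.71), and the cyclic AMP phosphodiesterases Pde4b (-0.63) and Pde4d (-0.55).

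Of 22 genes of trafficking, ubiquitin, RNA binding and genome maintenance, 2 rose and 8 fell at 4 h: Immp2l rose by 0.84, Btbd9 rose by 0.66, and the exocyst subunit Exoc4 fell by 0.60. Of 21 genes of common fragile sites, 5 rose and 8 fell, with a median of -0.01. The background at 4 h was 2861 rises and 2864 falls among 11506 genes, 24.9% in each direction. The lists hold members only, and of all 200 members 28 rose and 81 fell at 4 h. An excess of falls in a list is thus not read as a trait of its function. At 30 min 21.8% of all genes rose and 20.6% fell, and at 16 h 25.7% rose and 22.7% fell, so the 7 rises among 28 GTPase and cytoskeleton genes at 30 min lie near the background, and the balance over all members turned by library sums at that time. The lists are descriptive, since members and lists were chosen with earlier results of these data known.

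The promoters were searched for CACGTG, the canonical E-box that Myc and its partner Max bind, on windows of 300 bases around annotated starts from RefSeq (GRCm38.p6). The letters read the same on both strands. Windows were found for 148 members, and 14 of them (9.46%) held the motif, against 12.3% of 8272 eligible genes and 8.09% of all 27025 genes with a window. Counted by single windows, 7.15% of 32851 held it. None of the 15 members with a window that rose in labelled introns at 30 min held it, nor any of the 21 that rose at 1 h. Of those that fell, 1 of 5 held it at 30 min and 7 of 43 at 1 h (16.3%). These counts are small, and the contrast was not tested. A window of Dock4 without the motif and 1 of Etl4 with it, in capitals, are shown. They are from chr12:40445803-40446102 and chr2:20509797-20510096 on the plus strand.
Dock4 promoter: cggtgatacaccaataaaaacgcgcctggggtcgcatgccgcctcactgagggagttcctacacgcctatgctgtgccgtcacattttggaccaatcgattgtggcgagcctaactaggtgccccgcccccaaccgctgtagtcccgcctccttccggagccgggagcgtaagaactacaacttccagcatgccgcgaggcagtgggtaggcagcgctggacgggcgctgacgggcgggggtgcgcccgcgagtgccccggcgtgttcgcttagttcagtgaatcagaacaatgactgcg
Etl4 promoter: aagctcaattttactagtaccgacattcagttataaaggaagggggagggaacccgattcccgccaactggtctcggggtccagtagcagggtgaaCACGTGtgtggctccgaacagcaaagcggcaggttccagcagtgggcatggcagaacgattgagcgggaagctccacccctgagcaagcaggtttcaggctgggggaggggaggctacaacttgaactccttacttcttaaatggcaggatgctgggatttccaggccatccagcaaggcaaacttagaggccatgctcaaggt
Etl4 has 3 windows and the motif stands in 1 of them. Another, at chr2:20289663-20289962, lies upstream of it, so the motif is not at the first of these starts. Where the windows lie against the mm9 model that gave the intron lengths was not examined. A match is a description of these letters and says nothing of binding.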

How the data were processed

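Labelled and total RNA of 3T9-MycER cells was measured at 11 times with 3 libraries each. Per the submitters' processing notes, reads were aligned with TopHat2 2.0.8 to mm9; how reads were assigned to genes, with which annotation and whether by strand is not stated in those notes. The authors deposited whole-number values per gene for introns and exons, which behave as rescaled counts (13 of 66 libraries nearly lack some whole numbers), so each is handled as a score and no count model was fitted. The RPKM that the authors deposited equals that value times 1 constant per gene within 0.709%, and was used for the length index, for levels and as an alternative.

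Values were scaled by trimmed means (30% of ratios and 5% of levels trimmed), genes reaching 10 in 3 or more libraries entered, and limma 3.58.1 with trend (R 4.3.3) was fitted on log2(value + 1), or + 2 for the intron minus exon difference, over all times, with Benjamini-Hochberg adjustment over each table and a threshold of 0.05. Fold changes on this scale understate those of low genes. On simulated labelled introns at 30 min with 11506 genes, the fit recovered 60% of changes of 0.5 and 89% of changes of 1 (log2). Summaries used Python 3.11.15, numpy 2.4.6, pandas 2.3.3, pysam 0.24.0, samtools 1.23.1 and matplotlib 3.10.9.

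The labels name no separate cultures, so each p-value reflects variation among libraries that may only be technical. The members and lists were chosen with earlier results of these data known. Named genes were the 8 members of highest index; the 4 called members with the largest rise and fall in labelled introns (30 min, 1 h, 4 h, 16 h) and labelled exons (1 h, 4 h, 16 h), and the 3 in total exons at 16 h, averaging 50 or more in the higher group, with groups that do not overlap; the 3 with the largest intron minus exon difference each way at 30 min and 1 h; and the 3 of smallest p at 4 h in each list. Members named for timing, and Elmo1, were chosen after their values were seen.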

Additional observations from a re-analysis of the deposited data

How the results depend on the processing

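Shares of members called were recomputed under each alternative, and the cause of the changes below was not tested. The balance of rises and falls turned in labelled introns at 30 min by library sums (10 up, 20 down) and in the intron minus exon difference at 1.5 h with no further scaling (11 up, 8 down) and at 30 min by library sums (3 up, 5 down). It also turned in labelled exons with no further scaling at 1.5 h (10 up, 44 down, against 17 and 16 in the main scaling) and 2 h (15 and 30, against 23 and 19), in total introns at 1.5 h by library sums (30 and 36, against 31 and 22), and in total exons at 2 h (6 and 9 by library sums, against 8 and 7). No change of a named gene turned sign under the alternatives run. In labelled exons at 30 min the 2.51% became 1.01% with no further scaling, 1.01% on RPKM plus 0.1 and 1.01% with 100 members, and at 1 h the 8.54% became 4.04% with 100 members. In total introns at 30 min the 6.0% became 10.5% with no further scaling and 2.0% with 100 members, and at 1 h the 25.0% became 39.5% on the libraries of the 2 times alone. In total exons at 30 min the 0% became 0.5% on RPKM, and at 1 h the 1.0% became 0.5% with a pseudocount of 5, on RPKM, and for the 200 genes of longest annotated introns, 0% with 100 members, 1.5% with 400, and 0.521% without the 8 members of doubtful length; the last alternative and that by annotation were chosen after seeing the data. The intron minus exon difference at 30 min went to 4.02% by library sums, 4.02% with no further scaling and 1.01% on the 2 times alone. At 1 h its 7.54% became 0.503% on the 2 times alone and 2.02% with 100 members, at 4 h its 3.02% became 1.51% with no further scaling and 0% on the 2 times alone, and at 16 h its 3.02% became 0.503% on the 2 times alone. Leaving out 1 library at a time gave 7.5 to 10.5% (labelled introns, 30 min), 1.01 to 3.52% and 4.02 to 9.05% (labelled exons, 30 min and 1 h), 2.5 to 21.0% and 15.5 to 26.0% (total introns, 30 min and 1 h), 0.5 to 1.0% (total exons, 1 h), and for the difference 1.51 to 3.02%, 3.52 to 6.53%, 0 to 1.51% and 1.51 to 3.02% (30 min, 1 h, 4 h, 16 h). The time to 50% in introns of members that rose was 84.2 min with genes chosen by labelled exons at 4 h, 52.3 min with a change of at least 0.3, and 57.1 to 64.4 min without single libraries; in exons of members that fell it was 77.8 min with genes chosen by labelled exons at 4 h. With the replicate number as a block, total introns at 30 min had 13.5% of members called; the numbers give no pairing, as 11 of 40 comparisons had every correlation over 0.1. Of named genes, 9 of 77 calls were lost on RPKM and 45 of 528 when single libraries were left out.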
